A study of Homo sapiens with 2 samples.

Results

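Ferritin stores cellular iron in a shell built from heavy chains, encoded by FTH1, and light chains, encoded by FTL. Heavy chains oxidise ferrous iron as it enters the shell and light chains help to form the mineral core. Both mRNAs are among the abundant transcripts of cultured cells and carry an iron responsive element near the 5′ end, a stem-loop to which iron regulatory proteins bind and hold back translation when iron is scarce. Cytoplasmic poly(A)-binding proteins coat the 3′ tails of such mRNAs and affect tail length, translation and decay.

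The poly(A) sites of FTH1 and FTL were chosen by position, as all sites on the gene's strand inside a window around each gene on hg19 coordinates. The windows held 1 site per gene, so the members were 2 of 8995 sites, with 17649 of 2397922 reads (0.736%). The FTH1 site, on the minus strand of chromosome 11 at 61732002, had 12996 reads. The FTL site, on the plus strand of chromosome 19 at 49470136, had 4653 reads. The next minus-strand site on chromosome 19 lay 1251 nt beyond the FTL site, and on GRCh38 the annotated ends of FTL and its convergent neighbour GYS1 are 1247 nt apart. GENCODE v29 names 25 FTH1 and 16 FTL pseudogenes, and how reads from such copies were assigned is not given in the sources used here.

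Native RNA molecules with their tails were read by direct nanopore sequencing in HCT116, a human colon cancer line. All cells came from polyclonal lines that carry mAID degron tags on endogenous PABPC1 and PABPC4 and multiple Sleeping Beauty transposon copies of a transgene. The transgene was PABP1212, a PABPC1 with duplicated RRM1 and RRM2 RNA-binding domains, in the first library and PABPC1 in the second. Induced cells spent 13 days in doxycycline (1 μg/mL) and the auxin indole-3-acetic acid (0.5 mM), which swaps the tagged proteins for the transgene, and were then sorted by transgene expression into 4 gates of 25% of cells each. Each library thus held an uninduced, untreated and unsorted subsample and the lowest, second-lowest, second-highest and highest levels. Each subsample was sequenced once. Uninduced and sorted cells therefore also differ in drugs, sorting and barcodes, and library and transgene cannot be told apart. Depth ranged from 65862 to 630986 reads per subsample, of which FTH1 had 318 to 3297 and FTL 115 to 1119. The deposited data pair no site with a gene, and FTH1 and FTL were named by their position windows. Other iron genes and markers of colon epithelium were therefore not analysed here.

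Regulatory elements of these transcripts are shown from the GENCODE v29 sequences of FTH1-201 (1229 nt) and FTL-201 (878 nt) on GRCh38, with the motif in capitals. The iron responsive elements are shown because both genes share them, as 30 bases with the bulged cytosine, the 5 bases after it and the loop (CAGTGN) marked.
FTH1-201 element: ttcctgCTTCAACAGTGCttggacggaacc
FTL-201 element: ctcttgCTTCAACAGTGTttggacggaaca
They lie in the first exons, in the 5′ UTR, at chr11:61967573-61967602 on the minus strand and chr19:48965335-48965364 on the plus strand, and 26 of the 30 bases are identical. The motif occurred within the first 200 bases of 7.47% of 82892 protein-coding transcripts on the sense strand and of 6.59% on the other strand. The poly(A) signals (AATAAA in capitals) in the last 30 bases of each transcript are shown because tails are added downstream of such a signal.
FTH1-201 signal: ttttatgAATAAAaggcattaaaggctgaa
FTL-201 signal: ggaccaaatggaAATAAAgctttttgatgc
The FTH1 signal begins 23 bases from the annotated transcript end and the FTL signal 18 bases from its end. The 30 bases shown lie at chr11:61964285-61964314 on the minus strand and at chr19:48966849-48966878 on the plus strand. Whether these ends lie at the measured sites was not determined, because sites and transcripts are on different builds. AATAAA stood in the last 30 bases of 30.6% of protein-coding transcripts on the sense strand and of 2.82% on the other strand.

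With either transgene, median FTH1 tails were longest in the gate with least transgene and lower in each gate above it. In the PABP1212 library the median FTH1 tail was 81 nt in uninduced cells and 115, 89, 75 and 73 nt in the 4 gates in rising order. The upper pair of PABP1212 levels was below uninduced. Their 95% order-statistic intervals, 73 to 77 and 71 to 75 nt, overlapped each other but not the uninduced 78 to 83 nt. With PABPC1 the medians were 80 nt in uninduced cells and 104, 92, 83 and 82 nt in the gates in rising order. No PABPC1 level was below uninduced. The intervals of the upper pair, 81 to 87 and 78 to 88 nt, overlapped each other and the uninduced 75 to 86 nt. These intervals, like all intervals on reads here, cover counting error only.

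FTL tails followed the same order of levels. In the PABP1212 library the median FTL tail was 75 nt in uninduced cells and 104, 80, 67 and 64 nt in the gates in rising order. The highest level, at 61 to 68 nt, lay below the uninduced interval of 71 to 78 nt. The second-highest, at 63 to 71 nt, overlapped the highest and touched the uninduced interval. The FTL medians with PABPC1 were 74 nt in uninduced cells and 102, 83, 75 and 73 nt in the gates. The upper pair of PABPC1 levels was within 1 nt of uninduced. The uninduced subsamples of the libraries differed by 1 nt for each gene.

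**Figure D1:**
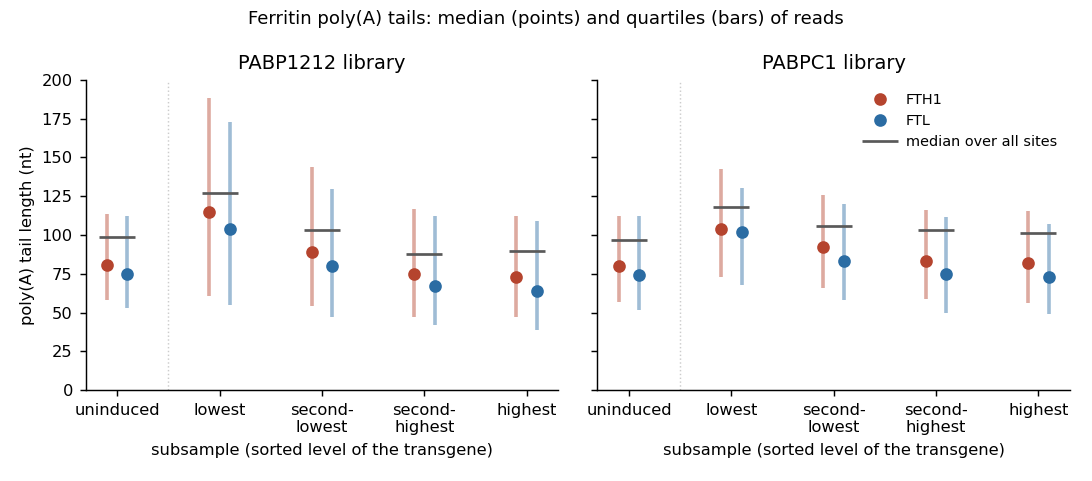
Median poly(A) tail length in nt (points) with the quartiles of reads (bars) for FTH1 and FTL in each subsample, PABP1212 library left and PABPC1 library right, and the median over all sites with at least 10 reads (grey dashes). Both genes are highest at the lowest level and lie below the grey dash in all 10 subsamples.

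The trend over the 4 sorted levels passed for FTH1 with PABP1212. In a limma fit of mean log2(nt + 1) over 914 sites, the FTH1 trend was −0.14 ± 0.03 log2 per level with PABP1212 (SE; limma adjusted p = 0.00461) and −0.10 ± 0.05 with PABPC1 (limma adjusted p = 0.995). For FTL it was −0.13 ± 0.04 with PABP1212 (limma adjusted p = 0.0557) and −0.12 ± 0.06 with PABPC1 (limma adjusted p = 0.995). With PABP1212, 139 of the 914 sites passed, all toward shorter tails (15.2%), and the median trend over sites was −0.14, so the FTH1 trend was close to that of the middle site. Of the 914 sites, 48.4% had a steeper PABP1212 trend than FTH1 and 57.0% a steeper one than FTL. With PABPC1 the limma fit called 0 of 914 sites (0%), 15 had an unadjusted p under 0.05, FTH1 among them, and the median trend was −0.08. The PABP1212 minus PABPC1 trend difference was −0.04 ± 0.06 for FTH1 and −0.01 ± 0.08 for FTL (limma adjusted p = 0.996 for both). For this difference limma called 0 of 914 sites (0%), and 2 had an unadjusted p under 0.05.

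These calls changed with single subsamples and with the measure of tail length. The FTH1 trend with PABP1212 was −0.11 without the PABP1212 lowest level (limma adjusted p = 0.100), −0.12 without the second-lowest (0.111) and −0.26 without the highest. It was −0.02 with the median over sites subtracted (0.677), and its adjusted p ranged from 9.02e-08 to 0.677 over 17 alternatives. The FTL trend with PABP1212 passed without the highest level (−0.24, limma adjusted p = 0.000314) or the second-highest (−0.14, limma adjusted p = 0.000551). It also passed with all subsamples as a mean of nt (limma adjusted p = 0.00687), as a median of log2(nt + 1) (0.0135) and without tails under 10 nt (0.00257), with a range of 0.000314 to 0.940 over 17 alternatives. The FTH1 trend difference passed without the PABP1212 highest level (−0.15, limma adjusted p = 0.0129, range over alternatives 0.0129 to 1.00).

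The difference in tail length between the mean of the sorted levels and uninduced cells did not pass for either gene. Uninduced cells are 1 subsample per library with no spread of their own, so every p for a change from uninduced, here and for read shares, takes that subsample to vary as the sorted levels do around their line. With PABP1212 the change was −0.01 ± 0.08 log2 for FTH1 and −0.12 ± 0.10 for FTL (SE; limma adjusted p = 0.991 and 0.990). With PABPC1 it was +0.11 ± 0.13 for FTH1 and +0.03 ± 0.18 for FTL (limma adjusted p = 1.00 for both). With either transgene limma called 0 of 914 sites (0%), and 34 with PABP1212 and 1 with PABPC1 had an unadjusted p under 0.05. This mean takes in both the longer tails of the lower gates and those near or under the uninduced length in the upper ones.

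The shape of the distribution at the lowest level differed between the libraries in these single subsamples. With PABP1212 the lower quartile of FTH1 tails was 61 nt at the lowest level, against 58 nt in uninduced cells, while the upper quartile was 188 nt, against 113.5 nt. With PABPC1 the lower quartile was 73 nt at the lowest level, against 57 nt in uninduced cells, and the upper quartile 143 nt, against 112.5 nt. The PABP1212 distribution was thus wider upward, whereas the PABPC1 distribution was higher at both quartiles. The interquartile range over the median was 1.10 at the lowest PABP1212 level, against 0.685 in uninduced cells, and 0.671 at the lowest PABPC1 level, against 0.694 in uninduced cells. For FTL these ratios were 1.13 against 0.783 with PABP1212 and 0.608 against 0.818 with PABPC1. The difference in shape was not tested.

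Very long tails were common at the lowest PABP1212 level. FTH1 tails of 240 nt or more made up 9.98% of FTH1 reads there, against 1.10% in uninduced cells. At the lowest PABPC1 level they made up 4.72%, against 0.473% in uninduced cells. For FTL the shares were 6.90% at the lowest PABP1212 level, against 1.03% in uninduced cells, and 0.870% at the lowest PABPC1 level, against 1.40%. The FTL shares in the PABPC1 library are 1 of 115 and 2 of 143 reads, too few to give a direction. The uninduced FTH1 share of that library is 2 of 423 reads. FTH1 tails of 150 nt or more were 9.76% of reads in uninduced cells of the PABP1212 library and 35.8%, 23.1%, 14.0% and 11.95% in the gates in rising order. With PABPC1 they were 10.9% in uninduced cells and 22.6%, 10.5%, 7.99% and 10.3%. For FTL the share with PABP1212 was 10.1% in uninduced cells and 33.1%, 18.2%, 13.7% and 11.8%, and with PABPC1 9.09% and 17.4%, 12.9%, 9.03% and 10.7%. Long tails were thus most frequent at the lowest level for both genes in both libraries, and less frequent than among all reads in all 10 subsamples. The share among all reads was likewise higher at the lowest level than in uninduced cells. It was 38.9% against 17.7% with PABP1212 and 30.4% against 19.1% with PABPC1.

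Short tails, under 30 nt, were more frequent at every PABP1212 level than in uninduced cells. For FTH1 they made up 3.23% of reads (exact Clopper-Pearson interval at 95%, 2.32 to 4.35) in uninduced cells of the PABP1212 library and 6.31%, 6.24%, 9.71% and 9.40% in the gates in rising order. The interval of the lowest level, 4.33 to 8.84, just overlapped the uninduced one, and that of the highest level, 8.43 to 10.5, lay above it. For FTL they made up 3.29% (1.89 to 5.29) in uninduced cells and 11.0%, 10.1%, 13.1% and 14.1% in the gates in rising order, all with intervals above the uninduced one. With PABPC1 the FTH1 shares were 2.13% in uninduced cells and 1.26%, 1.92%, 3.91% and 3.77%, and the FTL shares 3.497% and 5.22%, 2.67%, 6.14% and 4.06%. All PABPC1 intervals overlapped the uninduced ones, 0.98 to 4.0 for FTH1 and 1.14 to 7.97 for FTL. At the lowest PABP1212 level both ends of the distribution were therefore more populated than in uninduced cells, as the cumulative curves show. Short tails were rarer on FTH1 than among all reads in all 10 subsamples and on FTL in 6 of 10. The share among all reads was 6.21% in uninduced cells and 13.2% at the highest level with PABP1212.

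**Figure D2:**
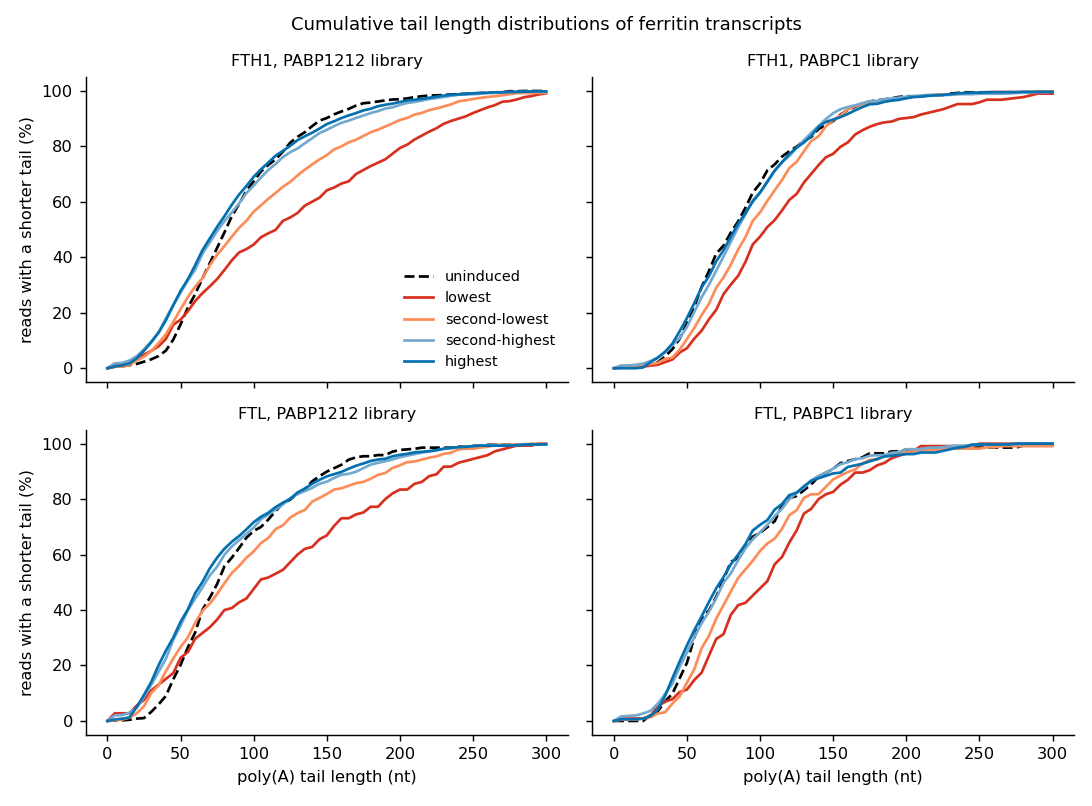
Cumulative share of reads (%) with a tail shorter than the length on the x axis (nt), for FTH1 (top) and FTL (bottom) in the PABP1212 (left) and PABPC1 (right) libraries, 1 line per subsample. At the lowest PABP1212 level the red line starts above the dashed uninduced line and ends below it, while for FTH1 with PABPC1 it is shifted right with 1.26% of tails under 30 nt, against 2.13%.

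In uninduced cells most tails of both genes lay between 30 and 89 nt. In the PABP1212 library 23.5% of uninduced FTH1 tails measured 30 to 59 nt and 32.5% 60 to 89 nt, and for FTL 28.6% and 30.5%. At the highest PABP1212 level the fullest class of both genes was 30 to 59 nt, with 27.8% of FTH1 and 31.99% of FTL reads. Tails recorded as 0 nt made up 0.939% of FTH1 and 1.01% of FTL reads.

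The median FTH1 tail was longer than the median FTL tail in every subsample. The median of FTH1 exceeded that of FTL by 6, 11, 9, 8 and 9 nt in the uninduced, lowest, second-lowest, second-highest and highest subsamples of the PABP1212 library. The differences with PABPC1, in the same order, were 6, 2, 9, 8 and 9 nt. The mean difference was 7.7 nt with an SD of 2.5 nt over the 10 subsamples, and FTH1 was longer in 10 of 10. The subsamples are fractions of 2 libraries, not independent replicates, so no p over all 10 is given. Within the PABP1212 library the mean difference was 8.6 ± 1.8 nt and within the PABPC1 library 6.8 ± 2.9 nt (SD; n = 5 each, subsamples that share 1 library). In each library a two-sided exact sign-flip permutation test gave p = 0.062, the smallest it can give. The median intervals of both genes were separate only at the upper pair of PABP1212 levels. There FTH1 had 73 to 77 and 71 to 75 nt, and FTL 63 to 71 and 61 to 68 nt. In all other subsamples they touched or overlapped. At the lowest PABPC1 level they overlapped widely, at 94 to 112 nt for FTH1 and 83 to 115 nt for FTL. Without tails under 10 nt the difference was 0 nt in 1 subsample and the mean 7.3 nt.

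Both genes had shorter tails than most sites, and in uninduced cells FTH1 was near the middle of the sites with many reads, with FTL below it. The FTH1 median minus the median over all sites was between −20.25 and −12 nt, and that of FTL between −28.25 and −16.25 nt, over the 10 subsamples. Among all sites with at least 10 reads, 15.1% had a shorter median than FTH1 and 8.69% a shorter one than FTL in uninduced cells of the PABP1212 library. Only 84 sites, FTH1 and FTL among them, had at least 100 reads in every subsample. Over these deeply read sites the median was 81 nt in the uninduced subsample of either library, so FTH1 differed from it by 0 and −1 nt and FTL by −6 and −7 nt.

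The place of FTH1 among the deeply read sites was higher in all sorted PABP1212 levels than in uninduced cells. In uninduced cells of that library 40 of the 84 sites had shorter tails than FTH1, and 70, 65, 68 and 66 did in the gates. FTH1 exceeded the median over these sites by 11, 9, 12 and 10 nt at those levels. With PABPC1, 35 sites were shorter in uninduced cells and 48, 52, 42 and 40 in the gates in rising order, where FTH1 stood at most 3 nt above the median. For FTL, 18 sites were shorter in uninduced cells of the PABP1212 library and 41, 41, 52 and 45 in the gates in rising order. With PABPC1, 12 sites had shorter tails than FTL in uninduced cells and 36, 15, 14 and 12 in the gates in rising order. These places are a description and carry the counting error of the medians. At the lowest PABP1212 level the median intervals were 101 to 126 nt for FTH1 and 86 to 125 nt for FTL. Both held the median over the deeply read sites, 104 nt. At the other sorted PABP1212 levels the FTH1 interval lay above that median. In the fit with the median over sites subtracted, the FTH1 change with PABP1212 was +0.11 log2 (limma adjusted p = 0.482) and that of FTL +0.01 (0.988).

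**Figure D3:**
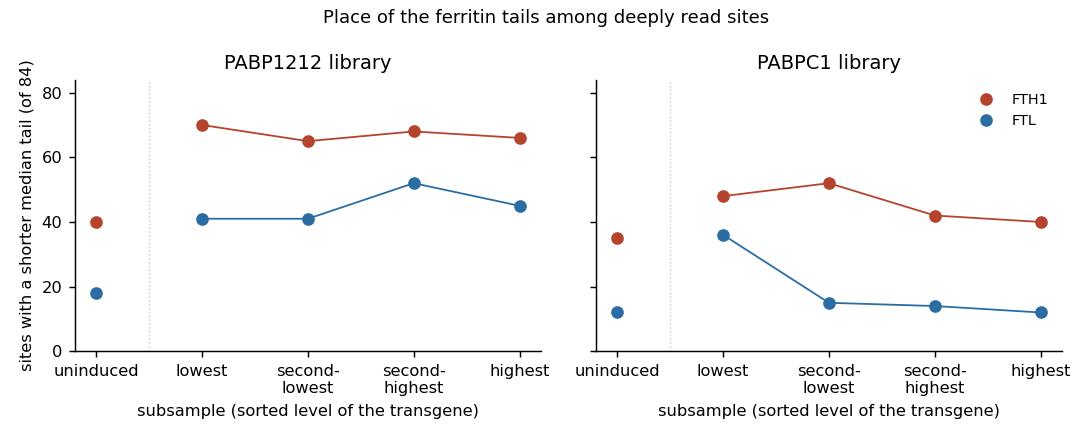
Number of the 84 sites with at least 100 reads in every subsample whose median tail is shorter than that of FTH1 or FTL (y axis), by subsample, PABP1212 library left and PABPC1 library right. FTH1 has 65 to 70 shorter sites at the sorted PABP1212 levels and 40 in the uninduced subsample.

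The sites most like FTH1 across the 10 median tails, by root mean square difference among 83 other deeply read sites, were the minus-strand site of chromosome 22 at 39708887 (4.3 nt) and the plus-strand site of chromosome 2 at 55462745 (5.34 nt). Those most like FTL were the plus-strand sites of chromosome 19 at 49995100 (3.56 nt) and of chromosome 16 at 89629485 (3.73 nt). FTH1 and FTL differed by 8.06 nt. FTL was the 19th nearest site to FTH1, and FTH1 the 33rd nearest to FTL. Both genes were thus closer to other sites than to each other.

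FTH1 and FTL took a smaller share of reads at the lowest level than in any other subsample of the same library. FTH1 made up 0.603% of reads in uninduced cells of the PABP1212 library and 0.351%, 0.492%, 0.517% and 0.569% in the gates in rising order. The lowest level had 0.583 times the uninduced share and its 95% Clopper-Pearson interval, 0.321 to 0.383, lay below all others of that library. The interval of the highest PABP1212 level, 0.550 to 0.589, overlapped the uninduced 0.570 to 0.637. In the PABPC1 library FTH1 made up 0.626% of reads in uninduced cells and 0.483%, 0.612%, 0.582% and 0.658%. Only the lowest PABPC1 level, at 0.431 to 0.539, had an interval below the uninduced 0.568 to 0.689. FTH1 ranked between the third and the eleventh most read site in all 10 subsamples.

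The FTL share had another course with PABPC1. In the PABP1212 library FTL made up 0.230% of reads in uninduced cells and 0.104%, 0.143%, 0.172% and 0.193% in the gates in rising order. All sorted levels lay below the uninduced interval of 0.210 to 0.252. In the PABPC1 library FTL made up 0.212% in uninduced cells and 0.175%, 0.220%, 0.286% and 0.329%. The interval of the lowest PABPC1 level, 0.144 to 0.210, overlapped those of uninduced cells and of the second-lowest level (0.192 to 0.251). The upper pair of PABPC1 levels, with intervals of 0.263 to 0.311 and 0.295 to 0.366, lay above the uninduced interval of 0.178 to 0.249, and the highest was 1.56 times uninduced. Its place among the most read sites went with this, 28th at the highest PABPC1 level and 128th at the lowest PABP1212 level. Fewer transcripts per cell and more of other transcripts cannot be told apart in such shares.

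**Figure D4:**
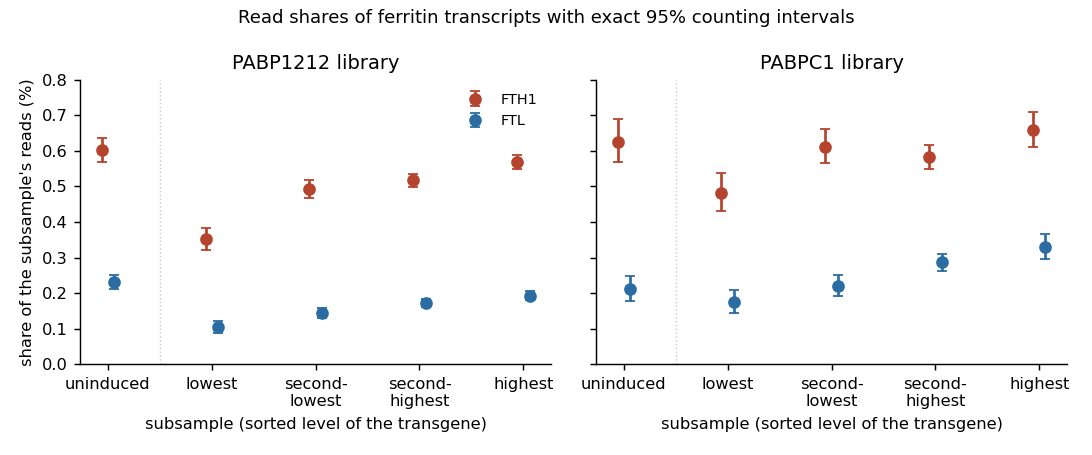
Share of the subsample's reads (%) for FTH1 and FTL by subsample, PABP1212 library left and PABPC1 library right, with exact 95% counting intervals. Both genes are lowest at the lowest level, where the FTL interval with PABPC1 overlaps the uninduced one. FTL at the upper pair of PABPC1 levels (0.286% and 0.329%) lies above its uninduced 0.212%.

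Read shares rose with the level of the transgene for FTL in both libraries and for FTH1 with PABP1212. In a limma fit of log2(CPM + 1) over 801 sites with a mean of 50 reads, the FTL trend was 0.36 ± 0.06 log2 per level with PABP1212 (SE; limma adjusted p = 0.00460) and 0.35 ± 0.06 with PABPC1 (limma adjusted p = 0.00555). The FTH1 trend was 0.28 ± 0.06 with PABP1212 (limma adjusted p = 0.00959) and 0.16 ± 0.06 with PABPC1 (limma adjusted p = 0.0816). Of the 801 sites, 152 rose with PABP1212 (19%) and 80 with PABPC1 (9.99%), 26 and 24 fell (3.25% and 3%), with median trends of 0.12 and 0.08 log2 per level. By total reads 84 rose and 30 fell with PABP1212, and 55 and 31 with PABPC1, where TMM gave 116 and 18. Of these sites, 93.9% had a lower trend than FTL in each library, and 84.6% with PABP1212 and 68.4% with PABPC1 a lower one than FTH1. The PABP1212 minus PABPC1 trend difference was 0.01 ± 0.09 for FTL and 0.11 ± 0.09 for FTH1 (limma adjusted p = 0.984 and 0.747), and limma called 0 of 801 sites (0%), 53 having an unadjusted p under 0.05.

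Leaving out 1 level ended some of these calls. Without the PABP1212 lowest level the PABP1212 trends were 0.25 for FTL, against 0.36 with it, and 0.14 for FTH1, against 0.28 (limma adjusted p = 0.640 and 0.853). Without the PABPC1 lowest level the FTL trend with PABPC1 was 0.30 (limma adjusted p = 0.137), and without the highest 0.40 (0.0574). The FTH1 trend with PABPC1 passed without the PABPC1 second-lowest level (0.19, limma adjusted p = 0.0358) and without the PABP1212 lowest level (0.16, limma adjusted p = 0.0312), with a range of 0.0312 to 0.806 over 16 alternatives.

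**Figure D5:**
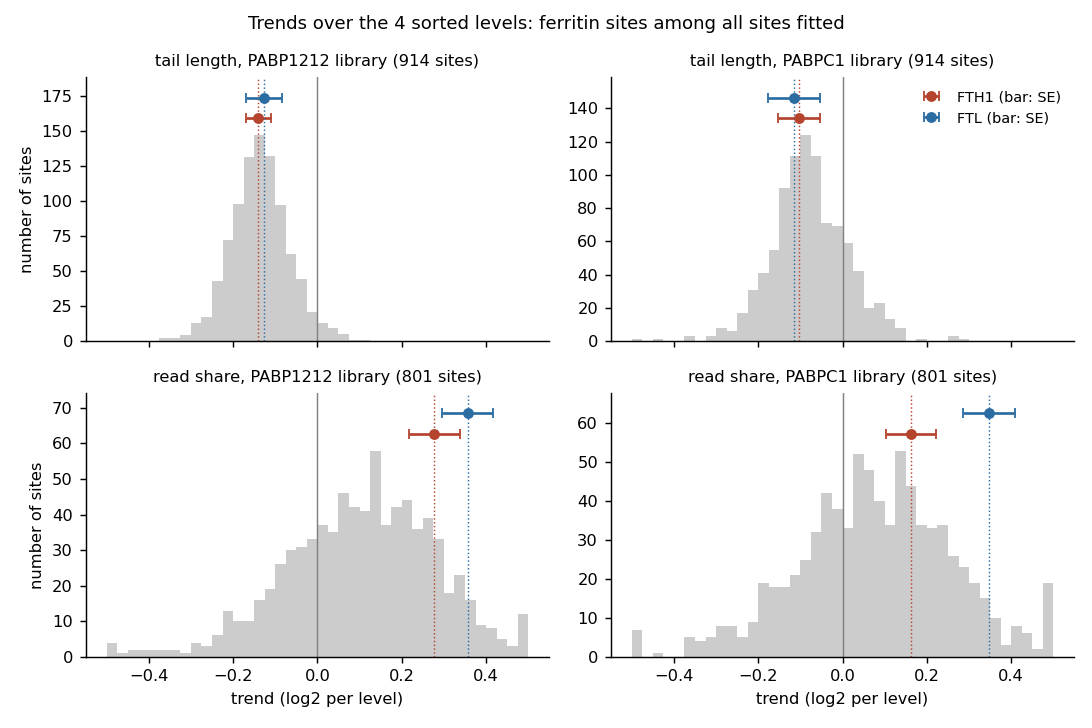
Trends over the 4 sorted levels in log2 per level (x axis) for tail length (top, 914 sites) and read share (bottom, 801 sites) with PABP1212 (left) and PABPC1 (right). Grey bars count all sites fitted, with those beyond the axis in the end bars, and points with SE bars mark FTH1 and FTL. Both genes sit in the middle of the tail trends, and FTL at 0.36 and 0.35 log2 per level lies in the upper part of the read share trends.

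Both genes had lower read shares in all 4 PABP1212 levels than in that library's single uninduced subsample, with overlapping FTH1 intervals at the highest. The change was −0.80 ± 0.15 log2 for FTL and −0.52 ± 0.15 for FTH1 (SE; limma adjusted p = 0.00693 and 0.0385), where 84 of 801 sites were called lower (10.5%), 16 higher (2%), and the median change was −0.21. Scaled by total reads, 26 sites were called lower and 24 higher, with a median of −0.04. Of the sites, 3.62% had a lower change than FTL, whose adjusted p ranged from 0.000543 to 0.0283 over 15 alternatives that all use the same uninduced subsample. With PABPC1 the change was +0.11 ± 0.15 for FTL and −0.21 ± 0.15 for FTH1 (limma adjusted p = 0.621 and 0.314), where 79 of 801 sites were called higher (9.86%) and 122 lower (15.2%). That balance turned with the scaling, to 90 higher and 66 lower under TMM and 114 and 105 by total reads. The FTH1 change with PABP1212 did not pass without the PABP1212 lowest (−0.41, limma adjusted p = 0.0506) or highest level (−0.45, 0.0711), nor without the PABPC1 second-highest (0.0771) or highest level (0.0505). Scaled by total reads it was −0.34 (limma adjusted p = 0.119), and its adjusted p ranged from 0.0130 to 0.130 over 15 alternatives.

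The PABP1212 minus PABPC1 difference of these changes, a test added after the values were seen, was −0.91 ± 0.22 log2 for FTL (SE; limma adjusted p = 0.104, unadjusted p = 0.000781). For FTH1 it was −0.31 ± 0.21 (limma adjusted p = 0.592). It passed at 5 of 801 sites (0.624%), FTL and FTH1 not among them. Without the PABPC1 lowest level the FTL difference was −0.95 and passed (limma adjusted p = 0.0142, range over 13 alternatives 0.0142 to 0.285).

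FTH1 had more reads than FTL in every subsample. Each read is 1 molecule counted at its 3′ end, so the shares were not divided by transcript length. In the PABP1212 library FTH1 had 2.62 times the reads of FTL in uninduced cells and 3.39, 3.43, 3.00 and 2.95 times in the gates in rising order. In the PABPC1 library the ratios were 2.96 in uninduced cells and 2.77, 2.78, 2.03 and 2.00. The log2 ratio averaged 1.46 with an SD of 0.27 over the 10 subsamples and was above 0 in 10 of 10. Within the PABP1212 library the log2 ratio was 1.61 and within the PABPC1 library 1.31, where the exact permutation test again gave 0.062. With the median tail this made 2 tests of FTH1 against FTL in each library, and the Benjamini-Hochberg values equal the raw p. Heavy chain reads outnumbered light chain reads least at the upper PABPC1 levels.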

How the data were processed

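Per the labels' protocols, libraries were made from 1 μg of total RNA with kit SQK-RNA004, with custom barcoded adapters at the first ligation. The authors deposited a row per read with its subsample, poly(A) site and tail length in nt (1 value per read, with no normalization). Per the deposited barcode table, a sorted level merges 3 barcodes. Of tools, minimap2 and Bowtie2 appear in the submitters' processing notes, with hg38 as the build, while the positions follow hg19. The sources used here give no basecaller or tail caller. Reads under a sample name outside that table (5.63% of the PABP1212 and 2.86% of the PABPC1 library) were not used here.

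Reads per site were counted here. limma 3.58.1 in R 4.3.3 was given a term for library and, in each library, a step for replacement and a slope over centred level ranks, which left 4 residual degrees of freedom. No subsample is repeated, so p-values measure the spread around a line over levels, which may be technical. That spread also takes in any curve over the levels, such as the small step between the upper PABP1212 levels in tail length. Tail fits took sites with at least 10 reads in every subsample, weighted by reads. Read share fits used log2(CPM + 1) after median-ratio scaling over 5662 sites, and let the variance follow the mean. P-values were adjusted over all sites fitted by Benjamini-Hochberg, with a threshold of 0.05. A replacement change is the mean of the sorted levels minus uninduced. The fits were tested on simulated data with straight-line trends and independent errors. These do not show how the fits behave with curved trends or with shifts shared by sites. The members, lists and tests were chosen with earlier results of these data known, and the named sites were those nearest in median tails. Sequences are from GENCODE v29. Other work used Python 3.11.15, SciPy 1.17.1, NumPy 2.4.6, pandas 2.3.3 and Matplotlib 3.10.9.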

Additional observations from a re-analysis of the deposited data

Results flagged for a closer look

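At several levels the change from uninduced had opposite signs in the libraries, with 1 subsample on each side, so the difference at a level was not tested. The median FTH1 tail was 6 nt below uninduced (−6) with PABP1212 and 3 nt above with PABPC1 at the second-highest level, and −8 and 2 nt from uninduced at the highest. The median FTL tail was −8 nt from uninduced with PABP1212 and 1 nt with PABPC1 at the second-highest level. These opposite signs were not particular to ferritin tails. The median over all sites with at least 10 reads was −11 nt from uninduced with PABP1212 and 6.25 nt with PABPC1 at the second-highest level. At the highest it was −9.5 and 4 nt from uninduced. The FTL read share was 0.622 times uninduced with PABP1212 and 1.04 times with PABPC1 at the second-lowest level, 0.747 and 1.35 times at the second-highest, and 0.839 and 1.56 times at the highest. The FTH1 read share at the highest level was 0.945 times uninduced with PABP1212 and 1.05 times with PABPC1. Over all sorted levels, the PABP1212 minus PABPC1 difference of the FTL read share change was −0.91 ± 0.22 log2 (SE; limma adjusted p = 0.104), with 1 uninduced subsample in each library.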

How the results depend on the processing

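Of 400 recomputed values, 341 kept direction and side of the threshold. Part of this was fixed by construction, so the count does not measure robustness. Leaving out a subsample of 1 library does not change the estimates within the other library, and fitting each library alone changes none. Only their p can move in those settings. Results that passed in no setting are also counted. No paired analysis was possible because each transgene has 1 library, so the groups share a single replicate number. Each gene has 1 site, so merging sites or taking the most read one changes nothing by construction, and a quasi-likelihood count model was not run because the deposited unit is not counts. The cause of each change was not tested unless the alternative's construction shows it.

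With sites of a mean of 10 reads, the FTH1 read share change with PABP1212 was −0.52 (limma adjusted p = 0.130), the FTH1 trend 0.28 (0.0696) and the FTL difference of changes −0.91 (0.0391). Scaling by total reads gave −0.34 for the FTH1 change with PABP1212 and −0.017 for the FTL trend difference. TMM scaling gave 0.19 for the FTH1 trend with PABPC1 (0.0468) and −0.0098 for the FTL trend difference, which was −0.0054 with voom weights. With libraries fitted alone the FTH1 trend with PABPC1 was 0.16 (0.0375). For tails, subtracting the median over sites gave FTH1 values of 0.11 for the PABP1212 change, 0.048 for the difference of changes, −0.016 for the PABP1212 trend and 0.015 for the trend difference. It gave FTL values of 0.0083 for the PABP1212 change, 0.026 for the difference of changes, −0.018 for the PABPC1 change and 0.040 for the trend difference. In nt without a log, the PABP1212 change was 9.42 for FTH1 and 4.21 for FTL, the FTH1 difference of changes 1.51 and the FTL PABP1212 trend −9.28 (0.00687). The median of log2(nt + 1) gave changes with PABP1212 of 0.055 for FTH1 and 0.0035 for FTL and an FTL trend of −0.18 (0.0135). Without weights the FTH1 change with PABP1212 was 0.018 and its trend −0.17 (0.0804). Without tails under 10 nt the values were 0.031 for the FTH1 change and −0.15 for the FTL trend (0.00257). FTH1 minus FTL was 8.6 and 6.8 nt and 1.61 and 1.31 log2 in the PABP1212 and PABPC1 libraries.

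With each subsample left out in turn, the PABP1212 tail trend ranged from −0.26 to −0.11 for FTH1 and −0.24 to −0.10 for FTL, the FTH1 tail trend difference from −0.15 to 0.032, that of FTL from −0.12 to 0.071, and the FTH1 tail change with PABP1212 from −0.042 to 0.052. The FTL tail change with PABPC1 ranged from −0.0030 to 0.088. For read shares, the FTH1 change with PABP1212 ranged from −0.59 to −0.41, its trends from 0.14 to 0.36 with PABP1212 and 0.063 to 0.19 with PABPC1, and its trend difference from −0.020 to 0.21. The FTL trends ranged from 0.25 to 0.44 with PABP1212 and 0.30 to 0.40 with PABPC1, their difference from −0.10 to 0.10, and the difference of FTL changes from −0.96 to −0.83. Numbers of sites called over all settings ranged from 10 to 665 for the PABP1212 tail trend (139 in the report), 0 to 6 for PABPC1 (0) and 0 to 139 for the difference (0). Those for tail changes were 0 to 66 with PABP1212 (0), 0 to 4 with PABPC1 (0) and 0 to 1 for the difference (0). For read share trends they were 1 to 268 with PABP1212 (178), 6 to 225 with PABPC1 (104) and 0 to 4 for the difference (0), and for changes 36 to 211 (100), 112 to 551 (201) and 0 to 98 (5). Depth limits FTL most at the PABPC1 lowest level (115 reads), in uninduced cells of the PABPC1 library (143) and at the PABP1212 lowest level (145).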
